A study of Mus musculus with 31 samples.

Results

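Messenger RNAs of ribosomal proteins were examined in T cells sorted from the mouse choroid plexus, a secretory epithelium inside the brain ventricles that produces the cerebrospinal fluid. The members were the rows of the expression table whose symbol begins with Rpl (large subunit) or Rps (small subunit), the Rps6k kinases excepted, and 95 of the 485 rows were members. Of these, 78 were genes (48 of the large and 30 of the small subunit) and 17 were pseudogenes (11 and 6). The table held all 46 genes of the canonical large subunit list and 29 of the 31 of the small subunit list, while Rps12 and Rps27 were no rows of it. The other 3 genes were Rpl22l1, Rpl36al and Rps27rt, which resemble canonical members. The 31 libraries came from female C57BL6/J mice kept in large cages with wheels, toys and tunnels from the age of 4 weeks, over 4 weeks (enriched environment, EE), or in smaller cages without objects (standard environment, SE). CD4+ T cells gave 9 libraries from EE and 8 from SE mice, and CD8+ T cells gave 7 from EE and 7 from SE mice. Per the study's methods, cells were sorted as CD45+ CD11b- CD3+ and CD4+ or CD8+. Within an experiment all mice of an environment lived in the same cage, and an effect of the cage cannot be told apart from one of the environment.

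The eukaryotic ribosome is built of a small subunit, which binds and decodes the messenger RNA, and a large subunit, which joins the amino acids. Each ribosomal protein is needed in about equal amounts, and most of their mRNAs begin with a run of pyrimidines, the 5′ terminal oligopyrimidine (TOP) motif, through which mTOR signalling controls their translation. T cells enlarge their ribosome pool when they are activated. Because these mRNAs are abundant, the mouse genome holds many retrotransposed, intron-free copies of them, the processed pseudogenes, most of which are thought to make no protein.

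The similarity of copy and gene decides how well a read can be assigned, so pairs of stretches are shown from the reference. Each is 60 bases of coding sequence in the gene and the matching stretch of its pseudogene, in GRCm38, 5′ to 3′ on the strand of the gene. For each pair the stretch inside 1 exon with the most differing bases was chosen, so other such stretches differ by no more. Over the whole alignment Rps2.ps13 had 7 mismatches in 882 bases and Rpl19.ps1 had 5 in 591. Capitals mark the bases that differ. Rps16 (chr7:28350992-28351051, plus strand) and Rps16.ps2 (chr5:129128410-129128469, minus strand, within Adgrd1) were identical over the pseudogene's whole span. Rps2 (chr17:24720300-24720359, plus strand) and Rps2.ps13 (chrX:52898612-52898671, plus strand) are shown because the gene differed between the cell types. Rpl19 (chr11:98030271-98030330, plus strand) and Rpl19.ps1 (chr1:85012581-85012640, plus strand) are shown because the pseudogene had the widest gap between EE and SE among the members in CD8 cells.
Rps16: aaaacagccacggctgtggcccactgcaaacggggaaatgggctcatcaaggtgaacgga
Rps16.ps2: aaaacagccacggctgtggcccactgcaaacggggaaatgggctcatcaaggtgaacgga
Rps2: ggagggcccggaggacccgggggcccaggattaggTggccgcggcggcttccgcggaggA
Rps2.ps13: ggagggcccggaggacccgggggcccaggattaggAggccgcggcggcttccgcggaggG
Rpl19: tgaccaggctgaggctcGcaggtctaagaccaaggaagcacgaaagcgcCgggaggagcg
Rpl19.ps1: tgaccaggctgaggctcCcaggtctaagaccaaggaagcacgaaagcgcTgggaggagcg

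Over their aligned spans the 17 pseudogenes were 98.3% to 100% identical to their parent genes. Rpl27.ps3, Rpl31.ps8, Rps6.ps4 and Rps16.ps2 had no mismatch, so no read inside their span can tell them from the parent. The authors discarded reads below 50 bases, and of all 50-base stretches of a pseudogene a median of 87.9% also occurred in another gene, against 23.9% for the ribosomal protein genes. All pseudogene values are therefore uncertain, and so are those of genes that share much of their sequence. Of the genes described below this share was highest for Rps27rt (91.1%), Rpl35 (84.1%) and Rpl36 (81.1%), the last of these above the 30.5% of its copy Rpl36.ps3. The shares pool the stretches of all annotated transcripts of a gene, so a gene with many transcripts can have a lower share. Rps27rt and Rpl36 have 1 such transcript and Rpl35 has 3, against 19 for Rpl13a. Pseudogenes have 1 or, for Rps26.ps1, 2, so the medians above are not on equal terms.

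Each library was made from 6 to 20 sorted cells and carried unique molecular identifiers (UMIs), which count each captured molecule once. Values below are normalised UMI counts, the UMI count divided by the size factor of the library, and need no division by gene length. Over the table, the libraries held 1910 to 26395 UMIs (median 5097). The sample titles carry a first number whose meaning the labels do not give and which may mark the study's separate series of experiments. The 19 libraries with number 1 held 4251 ± 1897 UMIs (SD) and the 12 with number 2 held 14406 ± 5696, and both numbers occur in all 4 groups. Of 8 T cell markers 5 were rows of the table, at a summed 0.484% to 1.14% of a library's values, while Cd4, Cd8a and Cd8b1 were no rows of it. Of 11 markers of choroid plexus epithelium 2 were rows (Ttr and Enpp2), and Ttr, the transthyretin that this epithelium secretes, was found in every library. Cst3 was the only row of 14 myeloid markers, and no B cell or erythrocyte marker was a row. The 11 CD4 libraries with number 1 stood apart from all others in the nuclear RNA Malat1, at 3.07 ± 0.777% (SD) of their values against 0.0897% in the 6 CD4 libraries with number 2. Whether replicates came from separate animals is given by an animal number, and CD8 SE replicates 5 and 6 share theirs. The descriptions of these libraries name both 5 and 6, so whether they came from 1 animal or from a pool is not settled.

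Ribosomal protein mRNAs were among the most abundant of the table. Of its 100 rows with the highest mean, 46 were members, and 79 of the 95 members (73 genes and 6 pseudogenes) were detected in all 31 libraries. Rps3, a small subunit protein at the site where mRNA enters, had the highest mean of all members, at 146 ± 27.1 (SD, n = 31, chr7:99477896-99483738, minus strand). High means were also those of the large subunit gene Rpl13a (60.1) and the small subunit genes Rps19 (45.9) and Rps23 (43.5). Rps3 led in each of the 4 groups. The lowest means were those of Rps2.ps13 (3.25), Rpl22l1 (4.17), Rpl18.ps1 (4.25), Rpl27.ps3 (4.38) and Rps13.ps1 (4.80), so that 4 of these 5 members were pseudogenes.

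The median of the means was 17.3 for the 48 large subunit genes (lowest 4.17), 20.6 for the 30 small subunit genes (lowest 6.31) and 5.21 for the 17 pseudogenes (3.25 to 17.7), against 6.33 for the 390 other rows. Although the proteins are used in about equal amounts, the values thus spanned a wide range within each subunit. A value also depends on how reads of shared sequence were assigned, so this range need not be that of the mRNA levels. The order of the members hardly changed between groups, with a Spearman correlation of the 95 group means of 0.964 to 0.974 over the 6 pairs of groups. These are correlations across genes measured in the same libraries, and genes are not independent replicates. Spread between libraries of one group, as a chi-square statistic per degree of freedom that is 1 when only counting noise is present, had a median of 1.83 for the genes, 1.28 for the pseudogenes and 1.96 for other rows. It was highest for Rpsa (5.30), Rps3 (4.52), Rpl35 (4.23) and Rps29 (3.90), and close to 1 for Rps25, Rpl28 and Rpl14 (0.827 to 0.835). Each group holds both first title numbers, so a shift between them adds to this statistic. For the same relative spread it also rises with the UMI count, which limits the comparison of high with low members.

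Members took a larger share of the table in CD8 than in CD4 libraries. The share was 27.6 ± 4.08% (SD) in CD4 EE (lowest 22.1, median 27.7, highest 33.6) and 28.3 ± 5.65% in CD4 SE (21.8, 26.2 and 36.8). For CD8 cells it was 34.8 ± 4.09% with EE (28.4, 34.2 and 40.3) and 35.3 ± 4.17% with SE (29.8, 34.2 and 39.7). EE and SE overlapped almost fully in both cell types, and 10 of the 17 CD4 libraries lay below the lowest CD8 library. Counting error is small beside this spread, since the 95% binomial interval (Wilson) of the lowest library was 20.3% to 23.4% and that of the highest 39.7% to 40.8%.

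The same order held at each first title number, and the share was also higher with number 2 in both cell types. With number 1 the share was 25.0 ± 2.60% in CD4 (n = 11) and 33.1 ± 3.35% in CD8 (n = 8), and with number 2 it was 33.3 ± 2.30% (n = 6) and 37.7 ± 3.31% (n = 6). No CD4 library was above the CD8 median of its own number. Such shares are described without a test, because they sum members chosen with results known, and in pooled cells a different mix of cells and a different level per cell cannot be told apart.

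**Figure D1:**
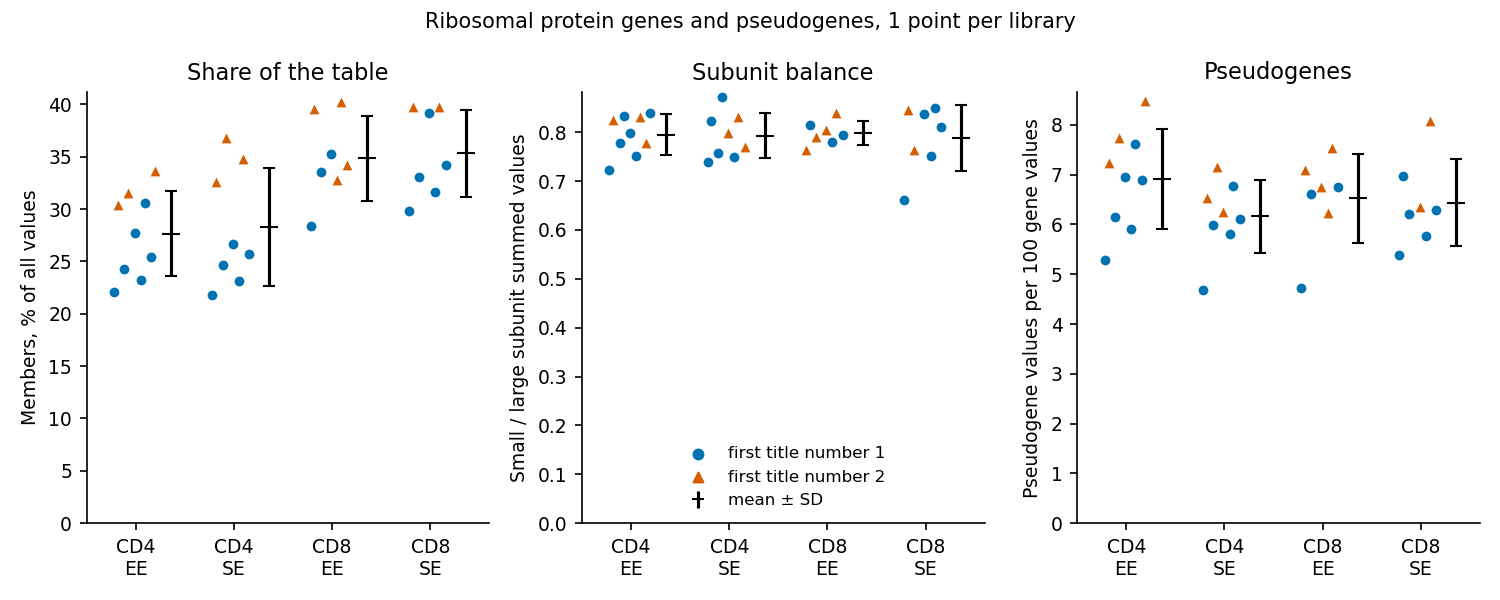
Left, summed values of the 95 members as a percentage of all values of the table; middle, summed small subunit over summed large subunit values; right, pseudogene values per 100 gene values. Each point is a library (circles first title number 1, triangles number 2), and bars give the mean ± SD of the 4 groups. CD8 libraries lie higher in the left panel, with means of 34.8% and 35.3% against 27.6% and 28.3%, while the middle panel shows the same ratio of about 0.79 in all groups.

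The balance of the subunits was close in the 4 groups. Summed small subunit values over summed large subunit values were 0.795 ± 0.041 (SD) in CD4 EE, 0.792 ± 0.0461 in CD4 SE, 0.798 ± 0.0242 for CD8 cells of EE mice and 0.788 ± 0.0683 for those of SE mice. The group means thus differed by less than the SD of any group, and the ratio was 0.787 with number 1 and 0.803 with number 2. Per 100 of gene values, pseudogenes had 6.92 ± 1.00 in CD4 EE, 6.16 ± 0.740 in CD4 SE, 6.53 ± 0.893 for CD8 cells of EE mice and 6.44 ± 0.875 for those of SE mice. These groups overlapped, with values from 4.69 to 8.47 over all libraries. The ratio was 6.15 ± 0.778 with number 1 and 7.12 ± 0.736 with number 2.

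Housing in EE or SE was the comparison of the study, made here within each cell type with limma on log2(value + 1) and Benjamini-Hochberg adjustment over all rows. On this scale differences of low genes are understated. In CD4 cells no member passed an adjusted p of 0.05, and neither did any other of the 483 rows tested (0%). At an unadjusted p under 0.05 there was 1 member among the 18 rows (3.73%, or 1.66% on the higher side, where the member lay), and edgeR and DESeq2 on the recovered UMI counts called 0 members each (adjusted p under 0.05), with 0 at an unadjusted p under 0.05. The median difference of EE minus SE was -0.01 over members and -0.04 over all rows. By class it was -0.05 for large subunit genes, -0.03 for small subunit genes and 0.16 for pseudogenes.

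The CD4 member with an unadjusted p under 0.05 was Rps26.ps1, a copy of the small subunit gene Rps26 (chr8:107439131-107439579, minus strand, within Wwp2). Its lowest, median and highest values were 6.10, 8.64 and 13.5 in EE, against 1.75, 5.48 and 13.3 in SE. The groups overlapped over most of their range, and the log2 difference of 0.68 (SE 0.32) had an adjusted p of 0.992. Its parent Rps26, whose protein lies where the mRNA leaves the small subunit, averaged 20.2 in EE and 14.3 in SE (log2 difference 0.48, adjusted p = 0.992 by limma). Rpl4 had a difference of 0.68, and on the lower side Rpl10a had -0.69, Rpl36al -0.67 and Rpl11 -0.48, the last a large subunit protein that can bind the p53 regulator Mdm2.

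In CD8 cells likewise no member and none of the 484 rows (0%) passed the adjusted threshold. The unadjusted p was under 0.05 for 4 members among 12 rows (2.48%), all higher in EE, and edgeR and DESeq2 called 0 members, with 2 and 1 at an unadjusted p under 0.05. The median difference was 0.03 over members, 0.04 over all rows, 0.03 over the genes of each subunit and 0.02 over pseudogenes. First title number 2 was carried by more of the CD8 EE than of the CD8 SE libraries, and this fit has no term for it. With the number as a covariate the median was -0.04 over members and 0.03 over all rows. Within number 1 it was 0.03 and 0.06, and within number 2 it was -0.13 and -0.03. Rpl19.ps1 had 3.85, 5.76 and 10.3 in EE (lowest, median, highest) and 0, 1.76 and 6.37 in SE. The SE libraries lay lower with an overlap, and 2 of them, replicates 4 and 7, held no UMI of it, which at 3 UMIs allows values up to 6.20 and 6.79. Its log2 difference was 1.36 (SE 0.45, adjusted p = 0.95), at 2.07 within first title number 1 and 0.18 within number 2, while the parent Rpl19 averaged 38.7 and 31.0.

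Among the other members with an unadjusted p under 0.05, Rpl39, which lines the exit tunnel for the new protein, had 0.73 and Rpl35a 0.66 (adjusted p = 0.95 for each by limma). The difference of Rpl39 was -0.15 within first title number 2, which 4 of 7 EE and 2 of 7 SE libraries carry. On the lower side no member had an unadjusted p under 0.05, and the lowest p-values were those of Rpl22l1 (-0.75), Rps2 (-0.40) and Rpl15 (-0.37).

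Whether the housing effect itself differed between cell types was tested as an interaction, and again 0 of 95 members and 0% of the 485 rows passed. Unadjusted, 2 members were under 0.05 among 12 rows (2.47%), both on the lower side, which held 1.86% of the rows against 0.619% on the higher, and edgeR and DESeq2 gave 0 calls each, with 1 member each at an unadjusted p under 0.05. The 2 members were Rpl19.ps1 (-1.57, CD4 minus CD8 in the EE minus SE difference) and Rps24 (-0.77), whose protein lies in the small subunit body. Rps24 averaged 19.6 in EE and 24.0 in SE CD4 cells, and 28.3 and 21.7 in CD8 cells, with SDs of 6.49 to 8.86. On the upper side, the members with the lowest p were Rps26.ps1 (0.81), Rpl22 (0.84) and Rpl31.ps8 (0.86), all with an adjusted p of 0.976 by limma.

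All 31 libraries entered the comparison of CD4 with CD8 cells, which was adjusted for environment. The small subunit gene Rps2 and the large subunit genes Rpl10, Rplp0, Rpl13 and Rpl36 were lower in CD4 than in CD8 cells, and no member was higher. Thus 5 of 95 members were called, 5.26%, when 36 of the 485 rows (7.42%) were called in all, and all 5 were on the lower side, where 3.09% of the rows were, with 4.33% on the higher side. The share of members called was no larger than that of the table or that of the other rows (7.95%). With the mouse as a replicate block, the count was 12 members, all lower in CD4, among 53 rows called (29 higher and 24 lower). With CD8 SE replicates 5 and 6, which share an animal number, averaged into 1 library, 26 rows were called and Rps2 was the only member. The other 4 genes then had adjusted p of 0.0667 to 0.0688 by limma.

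The direction was shared far beyond the called genes. Of the 95 members, 85 (89.5%) had a lower fitted value in CD4, against 43.3% of all rows, and 28 members, all lower in CD4, had an unadjusted p under 0.05, as had 22.3% of all rows and 9.69% on the lower side. Within first title number 1 the median difference was -0.34 for members and 0.09 for all rows. Within number 2 it was smaller, at -0.11 for members and 0.03 for all rows. Over all libraries the median difference was -0.29 for members and 0.16 for other rows. Subunits and kinds were alike, with -0.25 for large subunit genes (4 of 48 called), -0.31 for small subunit genes (1 of 30) and -0.29 for pseudogenes (0 of 17, with 2 at an unadjusted p under 0.05). On the upper side no member had an unadjusted p under 0.05, and the lowest p-values were those of Rpl19.ps1 (0.44, adjusted p = 0.444 by limma), Rps25 (0.10) and Rpl12 (0.16). The size depended on the scale, since the values of a library are relative to its size factor and the members are part of what sets it. With every library scaled to the same total over the rows that are no members, 28 members were called, all lower in CD4. Rows called were then 56 in all, 12 higher and 44 lower.

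**Figure D2:**
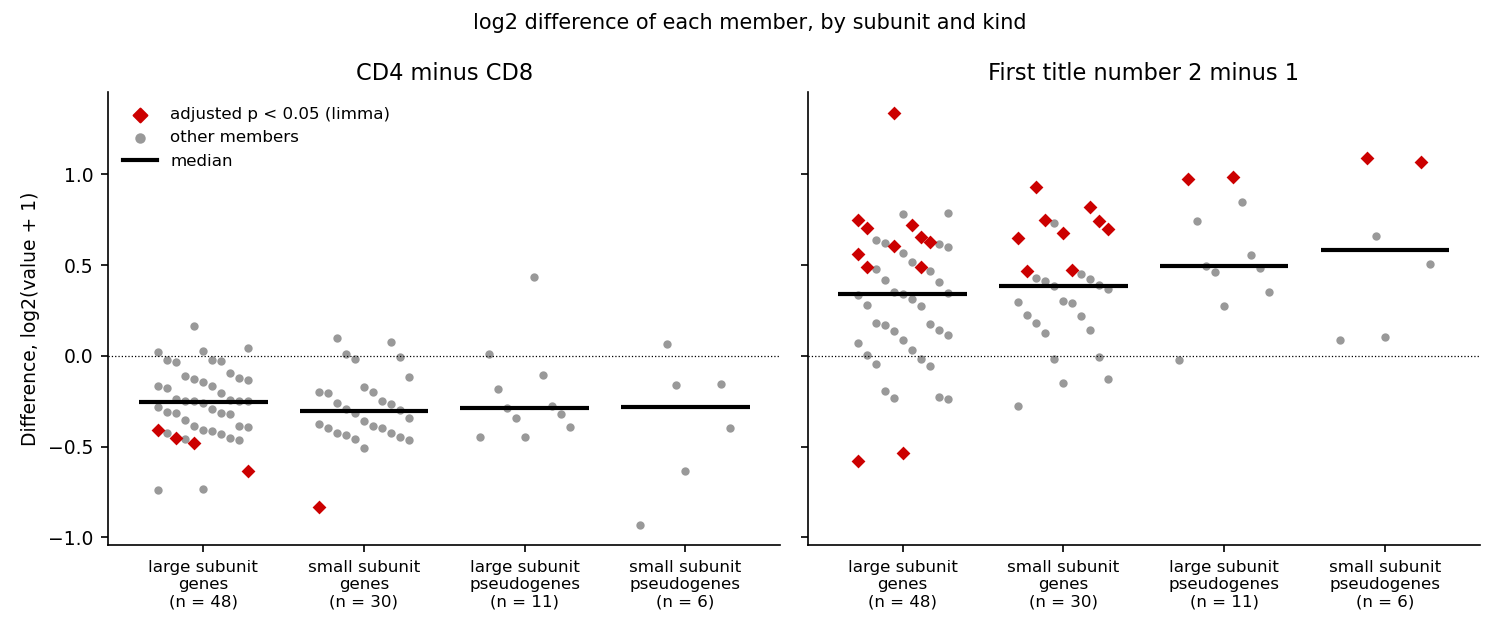
Each point is a member, placed by its fitted difference in log2(value + 1) between CD4 and CD8 (left) and between first title numbers 2 and 1 (right); red diamonds passed a limma adjusted p of 0.05 and black lines are class medians. On the left all 4 medians lie between -0.31 and -0.25, and on the right all lie above 0, with pseudogenes highest.

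Rps2, a protein at the mRNA entry side of the small subunit, showed the clearest difference (chr17:24718116-24721929, plus strand, overlapping the small nucleolar RNA genes Snora64 and Snora78 and their host Snhg9). Its lowest, median and highest values were 8.81, 23.3 and 31.1 in the 17 CD4 libraries and 15.7, 39.1 and 58.2 in the 14 CD8 libraries. All 17 CD4 libraries lay below the CD8 median and 12 of 14 CD8 libraries above the highest CD4 library, so that the overlap rested on CD8 EE replicate 7 and one other library. The log2 difference was -0.83 (SE 0.16, adjusted p = 0.000361 by limma), and -0.78 and -0.91 within first title numbers 1 and 2. In the 4 groups Rps2 averaged 20.5 ± 7.49 in CD4 EE, 22.3 ± 5.37 in CD4 SE, and, for CD8 cells, 33.6 ± 8.61 with EE and 43.5 ± 8.26 with SE (SD).

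Copies of Rps2 lay on the same side and did not pass. Rps2.ps13 averaged 2.02 ± 1.41 (SD) in CD4 and 4.75 ± 2.58 in CD8, with 3 CD4 libraries and 1 CD8 library at 0 (log2 difference -0.93, adjusted p = 0.051). With the mouse as a replicate block its adjusted p was 0.0397 by limma, and edgeR and DESeq2 called it too. Gm5786, a row that is no member but shares 584 of its 31-base words with Rps2, had -0.80 (adjusted p = 0.0658). Gm5921, with 463 shared words, had -0.67 (adjusted p = 0.133). Reads of these copies and of Rps2 can be exchanged in mapping, and their part in each other's values was not tested.

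Rpl10 lies near the catalytic centre of the large subunit and joins it late in assembly (chrX:74270812-74273135, plus strand, overlapping Snora70). Its values were 2.94, 12.3 and 28.1 in CD4 (lowest, median, highest) and 11.7, 18.5 and 25.9 in CD8. The ranges overlapped up to the top, since the highest value was that of a CD4 SE library, yet 16 of 17 CD4 libraries lay below the CD8 median. The difference was -0.63 (SE 0.20, adjusted p = 0.0448), and -0.80 and -0.37 within numbers 1 and 2.

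Rplp0 forms the base of the stalk that recruits elongation factors (chr5:115559467-115563727, plus strand). It had 17.6, 25.4 and 41.2 in CD4 and 25.7, 37.0 and 44.6 in CD8, with 9 of 17 CD4 libraries below the lowest CD8 library. The difference was -0.41 (SE 0.13, adjusted p = 0.0475). Rpl13, a large subunit protein, had 11.7, 29.9 and 48.3 in CD4 and 29.5, 42.7 and 69.8 in CD8 (chr8:123102350-123105244, plus strand, overlapping Snord68, Mir7079 and Gm20388). Here 7 of 17 CD4 libraries lay below all CD8 libraries, and the difference was -0.48 (SE 0.15, adjusted p = 0.0475). Rpl36, another large subunit protein (chr17:56613416-56614243, plus strand), averaged 23.5 ± 5.22 (SD, range 14.7 to 35.2) in CD4 and 33.0 ± 10.3 (22.7 to 58.8) in CD8, again with 7 of 17 CD4 libraries below all CD8 libraries. Its difference was -0.45 (SE 0.15, adjusted p = 0.049). All differences lay on the same side within each first title number, at -0.28 and -0.64 for Rplp0, -0.33 and -0.68 for Rpl13 and -0.50 and -0.53 for Rpl36.

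**Figure D3:**
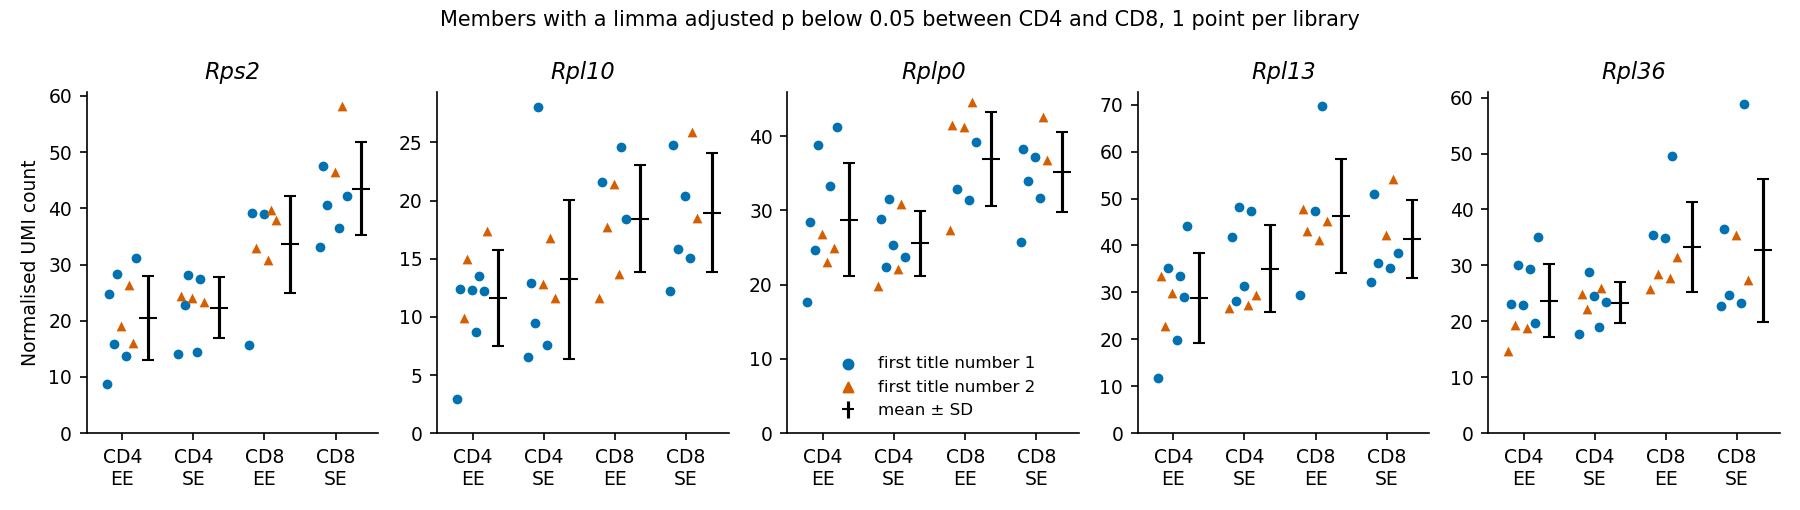
Normalised UMI count of the 5 members that differed between CD4 and CD8, by group; each point is a library (circles first title number 1, triangles number 2) and bars give the mean ± SD. Rps2 is the gene with the least overlap, with CD4 libraries at 8.81 to 31.1 and CD8 libraries at 15.7 to 58.2.

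These adjusted p-values were close to the threshold for all but Rps2, and the calls moved with single libraries. Leaving out each library in turn gave 1 to 10 called members, and 7 libraries each left 1 when absent: CD4 EE replicate 7, CD4 SE replicates 4 and 7, CD8 EE replicates 2 and 5, and CD8 SE replicates 5 and 6. Rps2 was called in 43 of 44 alternatives, all but the fit within first title number 1 (adjusted p = 0.0544 by limma). Rpl10 was called in 25 of the 44, Rpl13 in 19, Rplp0 in 18 and Rpl36 in 14. The 5 genes kept their sign in all 44. Ttr, which marks choroid plexus epithelium, averaged 152 in CD4 and 118 in CD8 libraries, Malat1 moved with CD4 at number 1 as given above, and their part in these differences was not tested.

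Other parts of the translation machinery did not all follow. Of 12 rows from a list of translation factors, 1 was lower in CD4, Eef1b2, a subunit of the exchange factor for elongation factor 1A, at 3.67 ± 3.59 (SD) in CD4 and 6.95 ± 3.80 in CD8 (log2 difference -1.03, adjusted p = 0.049 by limma). The list's median was -0.03. Fau and Gnb2l1 (the gene of Rack1), ribosomal proteins named outside the Rpl and Rps series, had differences of -0.09 and 0.11, with adjusted p of 0.742 and 0.9. Of 16 ribosome biogenesis genes only Npm1 and Gas5 were rows, and neither passed, nor had either an unadjusted p under 0.05. Gm10076, which shares 291 of its 31-base words with Rpl41, was lower in CD4 (26.8 ± 7.38 against 38.0 ± 6.53, log2 difference -0.51, adjusted p = 0.0155), and Rpl41 itself had -0.41 (adjusted p = 0.051). The mitochondrial ribosomal RNAs mt.Rnr1 and mt.Rnr2 went the other way, at 1.40 and 0.91, and both were called. Of the 13 mitochondrial rows only these 2 were called, 6 had a negative difference and the median was 0.06. Among these rows mt.Rnr1 was also lower by most with first title number 2 (-1.90), and the fit of CD4 against CD8 has no term for that number.

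The first title number was compared because it splits the libraries by depth within all 4 groups. With number 2, 23 members were higher and 2 lower. These 25 of 95 members (26.3%) stand beside 52 of the 485 rows (10.7%), with 7.01% higher and 3.71% lower, and 6.92% of the rows that are no members. At an unadjusted p under 0.05 there were 47 members higher and 3 lower, against 26.4% of all rows (16.3% higher and 10.1% lower). The count of called members was 24 with the mouse as a replicate block, among 50 rows called. Both subunits took part, with 10 of 48 large subunit genes higher and 2 lower, 9 of 30 small subunit genes higher and 4 of 17 pseudogenes higher. The median difference was 0.41 for members and 0.03 for all rows, with 0.34 for large subunit genes, 0.39 for small subunit genes and 0.51 for pseudogenes. Within CD4 libraries 8 of 95 members passed among 25 rows called, and within CD8 libraries 2 of 95 among 10 rows. After thinning every library to the 1910 UMIs of the smallest, 4 of 95 members passed (3 higher and 1 lower), among 17 rows called. Of these 4 members, 3 were among the 25. After thinning, Rpl9 (0.65), Rpl39 (1.24), Rps20 (1.03) and Rpl35 (-0.77) did not pass, with adjusted p of 0.06 to 0.0925 by limma.

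Rpl9, a large subunit protein near the factor-binding site, had the lowest p among members. Its values were 14.5, 23.5 and 37.0 with number 1 (lowest, median, highest) and 29.5, 37.2 and 50.5 with number 2 (log2 difference 0.75, SE 0.13, adjusted p = 0.000245). All 19 libraries with number 1 lay below the median of number 2, in both cell types. Rpl39 of the exit tunnel had the largest difference, from 0, 3.70 and 10.3 to 6.26, 11.7 and 17.7 (1.34, SE 0.30, adjusted p = 0.0022). Of its libraries with number 1, 2 held no UMI, and the gap was wider in CD4 (3.02 ± 2.15 against 11.7 ± 3.05) than in CD8 (6.71 ± 3.39 against 11.7 ± 3.68), a contrast that was not tested.

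Rps20, a protein of the head of the small subunit, had 1.23, 10.5 and 22.6 with number 1 and 10.6, 19.9 and 32.8 with number 2 (0.93, SE 0.25, adjusted p = 0.0099). Rps29, a zinc-binding small subunit protein, averaged 24.0 ± 8.13 (SD) and 38.0 ± 7.65 (0.70, adjusted p = 0.00245), and its difference was 1.01 within CD4 and 0.31 within CD8 libraries (adjusted p = 0.00849 and 0.456), a contrast that was not tested. Both genes lay above the number 1 median in all 12 libraries with number 2. Rplp1 and Rplp2, the acidic proteins that hang on Rplp0 in the stalk, were also higher, at 0.56 and 0.61 (adjusted p = 0.00565 and 0.0133). Rpsa, the small subunit protein also known as a laminin receptor, was higher by 0.82 (adjusted p = 0.0149). It was also the member with the most spread within groups, a measure to which the shift between the numbers adds.

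The 2 members that were lower with number 2 are of the large subunit. Rpl35, near the mouth of the exit tunnel, had 15.7, 28.8 and 65.6 with number 1 and 13.8, 19.0 and 25.6 with number 2 (-0.58, SE 0.17, adjusted p = 0.0176). Rpl15 had 12.3, 23.6 and 37.0 against 8.38, 15.6 and 23.7 (-0.53, SE 0.16, adjusted p = 0.0162). The groups overlapped in both, and for each gene at least 11 of 12 libraries with number 2 lay below the number 1 median. Rpl35 overlaps Arpc5l and Wdr38, and Rpl15 overlaps Nkiras1. With the scale set on rows that are no members, 54 members were called higher and none lower. Rows called were then 104 in all, 91 higher and 13 lower.

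**Figure D4:**
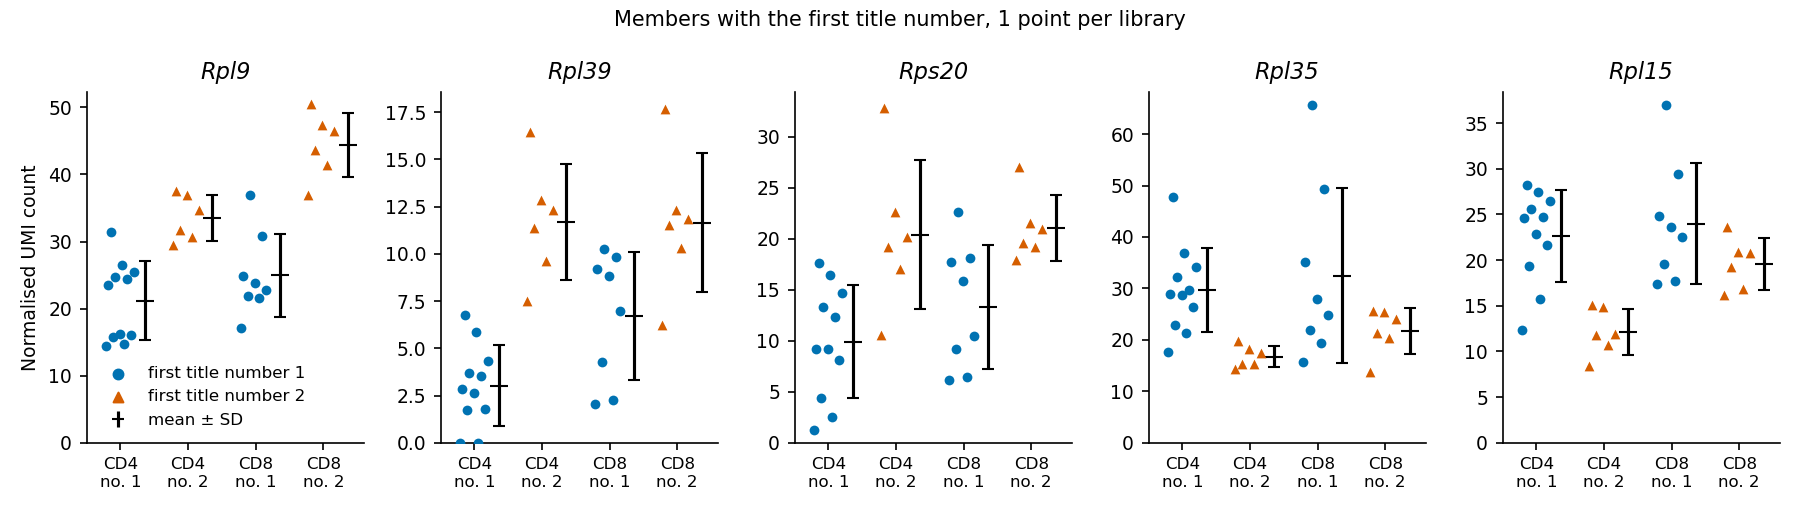
Normalised UMI count of 5 members by cell type and first title number (no. 1, circles; no. 2, triangles), with bars for the mean ± SD. Rpl9, Rpl39 and Rps20 lie higher with number 2 and Rpl35 and Rpl15 lower, in CD4 more clearly than in CD8 for Rpl39, Rpl35 and Rpl15.

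Other measures moved with the same number. Mitochondrial transcripts took 4.74 ± 1.31% (SD) of the values with number 1 and 2.85 ± 0.645% with number 2, and 5 of their 13 rows were lower with number 2, mt.Rnr1 most, at -1.90. T cell markers took 0.884% and 0.679%, with Cd3g lower by 0.72 on the log2 scale and no other of the 5 called, and Ttr averaged 154 and 109. Depth differed more than 3-fold, as given above. The part of these in the members' differences was not tested, and the number cannot be told apart from whatever else changed between those sets of libraries.

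Of the 17 pseudogenes 16 are set beside their parent here. They were read at 11.2 (Rps2.ps13) to 63.7 (Rpl36.ps3) per 100 of their parent's value, with a median of 32.5 over the 16 pairs. In the CD4 to CD8 comparison pseudogene and parent had the same sign in 15 of 16 pairs, and with the first title number also in 15 of 16. Of all members, 89.5% were lower in CD4 and 84.2% higher with number 2, so nothing particular to the pairs is read from these counts. For EE against SE it was 8 of 16 pairs in CD4 and 13 of 16 in CD8, where no member was called. These counts are descriptions, because a read of one copy can be given to the other. Against the number, 13 of 16 pseudogenes had a larger difference than their parent, and 12 of 16 had a higher level relative to the parent with number 2.

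The 4 pseudogenes higher with number 2 were Rps16.ps2, Rps6.ps4, Rpl18.ps1 and Rpl9.ps6. Rps16.ps2, which is identical to its parent over the whole copy, averaged 4.13 ± 2.68 (SD) and 8.19 ± 3.16 (1.09, SE 0.28, adjusted p = 0.00619), and Rps16 had 0.47 (adjusted p = 0.02). Rps6.ps4, a copy of the S6 kinase target Rps6 and also identical to it, averaged 3.66 ± 2.12 and 7.52 ± 2.90 (1.07, SE 0.29, adjusted p = 0.00979). Rpl9.ps6, which the annotation calls protein coding (chr19:32465865-32466578, minus strand), had 0.98 beside 0.75 for Rpl9. Rpl18.ps1 had 0.99 (SE 0.30, adjusted p = 0.0202). It averaged 3.22 ± 2.19 with number 1, with 3 libraries at 0, and 5.88 ± 1.70 with number 2.

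**Figure D5:**
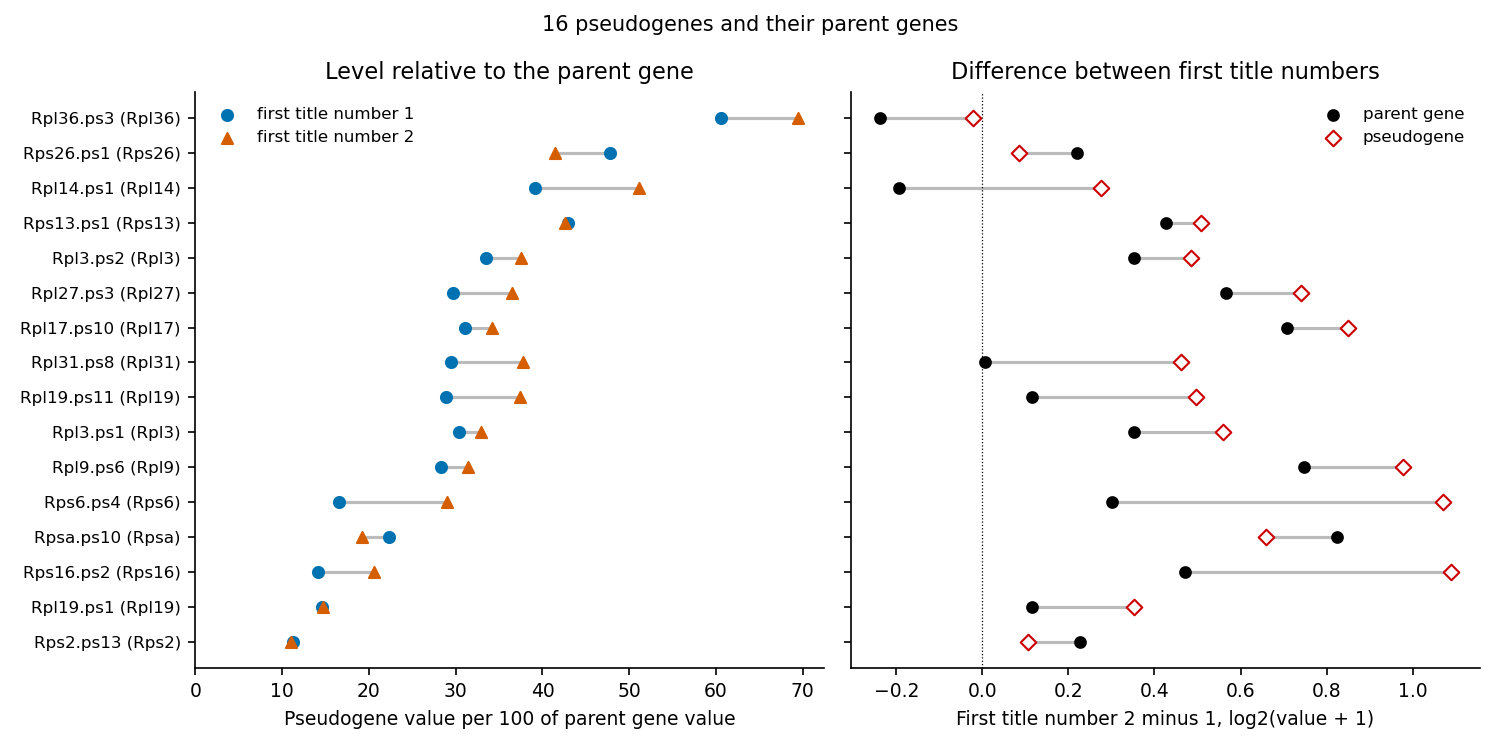
The 16 pseudogenes set beside a parent, with the parent gene in brackets; left, mean pseudogene value per 100 of mean parent value with first title numbers 1 (circles) and 2 (triangles); right, the difference between the numbers in log2(value + 1) for parent (filled) and pseudogene (open). The ratio is higher with number 2 in 12 pairs, and in 13 the open symbol lies to the right of the filled one, as for Rps16.ps2 (1.09 against 0.47).

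Rows outside the family that share sequence with it followed in part. Of 12 such rows 4 were higher with number 2, among them Wdr89 (1.03), which shares 31-base words with Rplp2, Gm10073 (0.75, with Rplp1) and Gm4149 (0.75, with Rpl37a). Rplp1, Rplp2 and Rpl37a were themselves called higher. Of the translation factors 1 of 12 was higher, Eef1a1 (0.47), and the list's median was 0.16.

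Paralogous pairs showed no contrast between the cell types that passed the test. Rpl22, which developing T cells need, averaged 5.64 ± 2.45 (SD) in CD4 and 6.50 ± 2.63 in CD8, and its paralog Rpl22l1 averaged 4.11 ± 2.87 and 4.24 ± 2.87. Both were thus read at similar low levels. Rpl36a averaged 12.4 ± 4.78 and 16.9 ± 6.63 and its paralog Rpl36al 5.83 ± 3.22 and 6.20 ± 3.15, with adjusted p of 0.321 and 0.782. Rps27rt, an intron-free copy of Rps27, averaged 15.0 ± 4.84 and 15.3 ± 5.12.

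Start sites were compared because TOP mRNAs are defined by their first bases. RefSeq promoters of the build GRCm38.p6 (250 bases before to 50 after the start) were found for 58 of the 78 genes. A C followed by 4 pyrimidines (C or T) stood exactly at the annotated start in 12 of the 58 (20.7%) and within 5 bases of it in 27 (46.6%), against 2.49% and 18.5% of all 27025 promoters. The ETS-type motif CCGGAAG, on either strand, occurred in 39.7% against 9.12%, the YY1-type motif AAGATGGC in 5.17% against 2.88% and TATAAA in 10.3% against 14.2%. The start regions below run from 30 bases before to 20 after the annotated start, with the pyrimidine run within 5 bases of it in capitals. They are shown for genes that differed between cell types (Rps2, chr17:24720033-24720082, plus strand; Rpl10, chrX:74270786-74270835, plus strand; Rpl13, chr8:123102320-123102369, plus strand) and with the first title number (Rpl39, chrX:37085203-37085252, minus strand; Rpl35, chr2:39005112-39005161, minus strand; Rpl15, chr14:18270967-18271016, minus strand).
Rps2: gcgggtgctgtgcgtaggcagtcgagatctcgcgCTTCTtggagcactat
Rpl10: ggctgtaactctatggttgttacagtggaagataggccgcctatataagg
Rpl13: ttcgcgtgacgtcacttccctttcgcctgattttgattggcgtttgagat
Rpl39: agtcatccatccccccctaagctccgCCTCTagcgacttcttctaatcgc
Rpl35: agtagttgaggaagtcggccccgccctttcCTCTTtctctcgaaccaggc
Rpl15: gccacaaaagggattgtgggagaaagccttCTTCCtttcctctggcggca

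Genes with and without this pyrimidine run near the annotated start differed little in both comparisons. The starts used in these cells were not measured, so the groups need not be TOP and other mRNAs. Between CD4 and CD8 the median difference was -0.29 for the 27 genes with it and -0.30 for the 31 without, and between the numbers it was 0.30 and 0.35. Rps2, Rpl39, Rpl35 and Rpl15 have the run, while Rpl10 and Rpl13 do not have it within 5 bases of the annotated start. In the window shown, Rpl13 has such a run further upstream.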

How the data were processed

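The 31 libraries and their 4 groups were taken from the sample titles. According to the study's methods, the authors trimmed adaptors with cutadapt, kept reads with the UMI pattern and at least 50 bases, mapped them with STAR 2.4.0a to mm10, counted the UMIs of each GRCm38 Ensembl gene with Drop-seq tools, left out CD4 samples in which Cd8a and Cd8b were not at 0, removed genes of low abundance and normalised with DESeq2. The deposited values are thus a signal, UMI counts that the authors divided by 1 size factor per library, and whole counts were recovered from 100% of them (within 0.01 of a whole number). How reads matching several genes were treated is not given in the sources used here. The 485 rows are a subset of each library.

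Members, lists and tests were chosen with earlier results of these data known. limma 3.58.1 (R 4.3.3) was run two-sided on log2(value + 1) with a trended prior for the variance, over all rows above 0 in at least 1 library, at an adjusted p of 0.05. Environment was a term for CD4 against CD8, and group for the first title number. Alternatives were other pseudocounts, filters and scales, edgeR 4.0.16 and DESeq2 1.42.0 on recovered counts, and thinning. Further ones took the first title number as a covariate or each number alone, left out single libraries, or used a mouse block. A mouse was an environment, first title number and animal number, since the labels give animal numbers. By this rule CD8 SE replicates 5 and 6 counted as 1 mouse, though their descriptions name both 5 and 6. The 11 CD4 and CD8 pairs from 10 of 20 mice had deviations correlated by -0.11 to 0.27 (median 0.01). Scripts were tested on simulated data. Libraries with 0 UMIs of a gene allow up to 3 UMIs, and such limits and the binomial interval cover counting error only. P-values measure the spread between libraries, which share cages within an experiment. Named were members past the threshold (with over 12, the 6 most positive and the 6 most negative), otherwise up to 3 per direction by p, the 5 highest and lowest means, pseudogenes, paralogs, word-sharing rows and called list genes. Rplp1, Rplp2, Rpsa and Rpl37a were added after their values were seen. Promoters come from RefSeq, and positions and transcript sequences from GENCODE M21 (GRCm38). A few rows are counted among the members and lists but not reported here by name.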

Additional observations from a re-analysis of the deposited data

Results flagged for a closer look

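In 16 of 192 combinations of group and measure (8.33%, over 45 named members and 3 summed measures in 4 groups), the highest or lowest library stood apart from the rest by Dixon's criterion at 95%, which chance alone would meet in about 1 of 20 groups. Rpl35, one of the members with the most spread, had a high library in 3 groups: 47.7 in CD4 EE replicate 3 (the rest 14.4 to 29.6), 49.3 in CD8 EE replicate 4 (the rest 13.8 to 25.4) and 65.6 in CD8 SE replicate 7 (the rest 19.3 to 35.2). Rpl36 had one in both CD8 groups, 49.6 in EE replicate 5 (the rest 25.8 to 35.4) and 58.8 in SE replicate 7 (the rest 22.7 to 36.5).

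CD4 EE replicate 4 was the highest of its group for Rpl4 (21.4, the rest 3.05 to 11.7), Rps24 (38.2, the rest 10.1 to 23.5) and Rpl31.ps8 (17.4, the rest 5.30 to 11.1). CD8 EE replicate 7 was the lowest of its group for Rps2 (15.7, the rest 30.8 to 39.7) and Rpl31.ps8 (5.89, the rest 7.82 to 8.92). Rps20 was lowest in CD8 EE replicate 5 (9.22, the rest 17.7 to 22.6), and Rpl36al was highest in CD8 EE replicate 4 (14.4, the rest 2.35 to 6.86).

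In CD4 SE, pseudogenes stood apart on the high side: Rpl17.ps10 in replicate 8 (17.8, the rest 0 to 8.34), Rps6.ps4 in replicate 8 (9.59, the rest 1.90 to 5.26), Rpl27.ps3 in replicate 3 (11.5, the rest 0 to 5.21) and Rpl14.ps1 in replicate 2 (10.2, the rest 2.62 to 6.16).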

How the results depend on the processing

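For CD4 against CD8, 5 members were called (rows called higher and lower, 21 and 15). The count was 3 with a pseudocount of 0.5 (15 and 12) and 1 with only genes of a mean of at least 5 (8 and 6). It was 12 with the same total over the table (15 and 23) and 28 with the same total over other rows (12 and 44). It was 11 with edgeR (25 and 21), 14 with DESeq2 (32 and 23) and 2 after thinning (13 and 9). With CD8 SE replicates 5 and 6 averaged it was 1 (16 and 10). Within first title number 1 it was 0 (15 and 5), with 18 members at an unadjusted p under 0.05 by limma. Within number 2 it was 4 (10 and 10). With the number as a covariate it was 7 (21 and 17), among them all 5. Without single libraries it was 1 to 10. With the replicate block by mouse it was 12 here (29 and 24), and the block moved no other count of calls by over 1.5 times. For the first title number 25 members were called (34 and 18). The count was 54 with the same total over other rows (91 and 13), 43 with edgeR (57 and 33) and 4 after thinning (9 and 8). It was 8 within CD4 libraries (10 and 15), 2 within CD8 libraries (4 and 6) and 19 to 33 without single libraries. DESeq2 split its rows into 46 higher and 58 lower. Scaling on other rows moved the median of all rows from 0.07 to -0.12 for CD4 against CD8 and from 0.03 to 0.23 for the number. None of these 5 and 25 called members changed sign in the alternatives run. For EE against SE and the interaction, 0 members were called by limma, edgeR, DESeq2 and every other alternative run (1 to 4 members at an unadjusted p under 0.05 by limma as reported). The member share of CD4 libraries, 27.9%, was 33.3% in those with first title number 2. Thinning, the within-CD4 and within-CD8 fits and the block for the number were added after seeing the data. With fewer libraries or UMIs the power is lower, and low pseudogene values rest on few UMIs.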
